A study of Rattus norvegicus with 12 samples.

Results

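Long-term blueberry feeding in ovariectomized rats (LTBB OVX) was compared with ovariectomy on the control diet (OVX) in long bone RNA, over every probe set of the rat array other than the control probe sets. The comparison used 6 of the 12 arrays of the study, 3 for each group, and it was chosen by diet and operation as the sample labels give them. Both groups were female Sprague-Dawley rats that had been ovariectomized and were at postnatal day 81. The OVX rats ate a casein diet, and the LTBB OVX rats ate the same kind of diet with blueberry powder (BB) from weaning until sacrifice. The other 6 arrays, from sham-operated rats on the casein diet (Sham) and from ovariectomized rats given BB for a short time after weaning (STBB OVX), entered the fit for the estimate of spread.

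Equal RNA amounts of 2 to 3 rats were pooled for each array, so that the spread between arrays was a spread between small groups of animals, and the difference between single rats was not measured. The bone was the femur according to the labels but the right tibia according to the methods. Whole bone holds marrow, cartilage, vessels, fat and remnants of the attached muscle beside the bone cells, and in such bulk RNA fewer cells of a type cannot be told apart from less RNA per cell. The deposited values are on a log2 scale, centred so that the median array of every probe set is at 0. A value of 1 therefore stands for double the median array, and the absolute level of a gene, with it any check of the bone label against osteoblast or osteoclast markers, was lost.

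Removal of the ovaries takes away estrogen, which restrains the osteoclasts that resorb bone, and bone turnover and loss of trabecular bone follow. Blueberry fruit is rich in anthocyanins and phenolic acids, which the gut and its bacteria turn into small phenolic acids that reach the blood. Long bone RNA carries transcripts of the collagen-secreting osteoblasts, the acid-secreting osteoclasts, the cartilage of the growth plate and the blood-forming marrow, where mast cells are one of the rarer residents.

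No gene differed between LTBB OVX and OVX beyond the adjusted threshold, and the largest mean differences lay in skeletal muscle genes, higher in LTBB OVX through a single pool, and in mast cell genes, lower in LTBB OVX. Of 31042 probe sets, 0 (0%) passed limma's moderated test at a Benjamini-Hochberg adjusted p of 0.05, and the smallest adjusted p was 0.99998. At an unadjusted p under 0.05, 884 probe sets (2.85%) passed, 330 (1.06%) with a higher and 554 (1.78%) with a lower value in LTBB OVX. Averaged to 14217 genes, the same test called 0 genes (0%), with a smallest adjusted p of 0.99996, and 329 genes (2.31%) passed at an unadjusted p under 0.05, 114 (0.802%) higher and 215 (1.51%) lower. The latter split was 413 higher and 507 lower with the arrays quantile normalized again, and without OVX pool 2 the unadjusted counts were 1907 probe sets and 821 genes. All of the genes named below thus missed the adjusted threshold, with a limma adjusted p of 0.99996 or more, and the SE and 95% intervals printed with them are those of single genes, not widened for the number of genes. With 3 pools against 3, an exact permutation test of a single gene cannot go below p = 0.10. The 3 pools of one diet lay entirely above or below the 3 of the other in 2868 probe sets (9.24%), with LTBB OVX on top in 4.21% and below in 5.03%. Over genes this held for 1237 (8.7%), with LTBB OVX on top in 3.93% and below in 4.77%. If no gene differed, a share of about 0.05 would pass the unadjusted threshold and about 0.10 would not overlap. The shares of 2.85%, 2.31%, 9.24% and 8.7% were below these. The unadjusted share of probe sets was 6.89% with the arrays quantile normalized again and 6.14% without OVX pool 2. In the former setting the scale of the values changed too, with a median SE of 0.15 in place of 0.10.

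On the values as deposited, the intervals of most of the transcriptome were narrow. The margin of the 95% interval, the distance from the difference to either end, had a median of 0.22 log2 over probe sets, which is 1.17-fold, and 0.20 log2 over genes, which is 1.15-fold. For 30116 probe sets (97.0%) the whole interval lay within a 1.5-fold change in either direction, and for 30911 (99.6%) it lay within a 2-fold change. Over genes these counts were 13842 (97.4%) and 14147 (99.5%). The counts within 1.5-fold were lower, 20351 probe sets and 10724 genes, when the arrays were quantile normalized again, and those within 2-fold were then 29020 and 13567. The differences themselves ran from -0.27 at the 1st percentile to 0.28 at the 99th percentile of the probe sets. A single probe set differing alone among the 31042, at the median SE of 0.10, would have needed a difference of 0.83 log2, or 1.78-fold, to pass the adjusted test.

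Skeletal muscle genes were prominent among the genes with wider intervals. Of the 70 genes whose interval reached beyond a 2-fold change, 40 belonged to the lists of sarcomere, muscle energy metabolism and muscle excitation genes, which hold 79 measured genes in all. Of the 131 such probe sets, 50 were among the 119 probe sets of those lists. In the plot of each gene's difference against its interval, many muscle genes lie above the dense cloud of all genes.

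**Figure D1:**
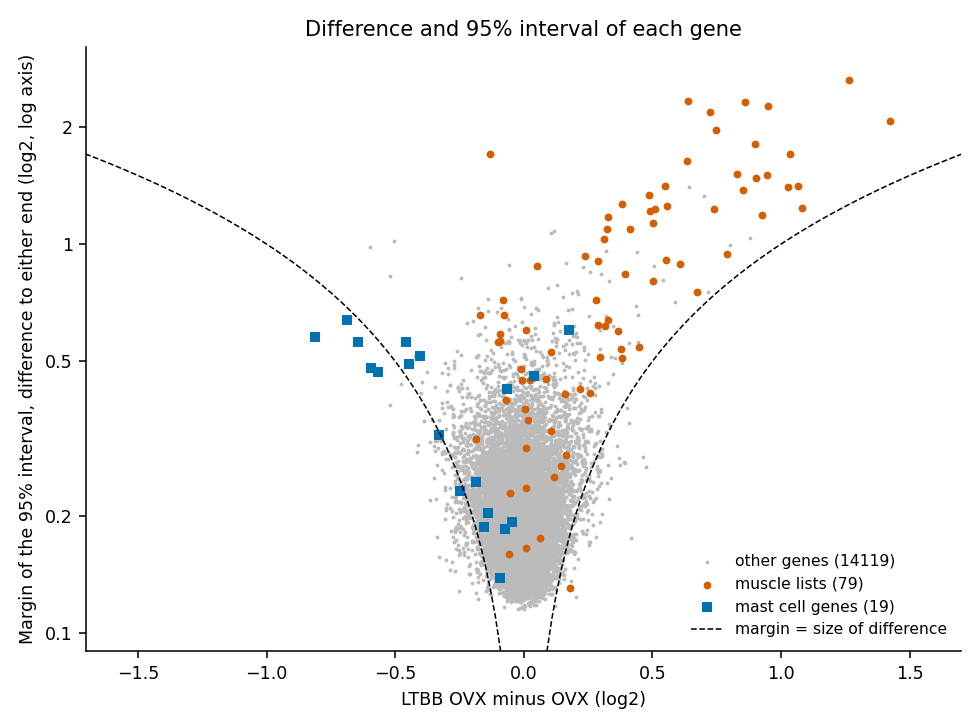
Each point is 1 of the 14217 genes, with the difference of LTBB OVX minus OVX on the log2 scale along the x axis and the margin of its 95% interval, also in log2 on a log axis, along the y axis. Most genes lie near the median margin of 0.20, and 40 of the 70 genes with an interval beyond a 2-fold change are muscle genes.

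Pools of different diets lay about as far apart as pools of the same diet. The root mean square difference over all probe sets between an OVX pool and an LTBB OVX pool ran from 0.169 to 0.269 log2, with a median of 0.194 over 9 pairs. Between pools of the same diet it ran from 0.172 to 0.233, with a median of 0.208 over 6 pairs.

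Differences of at least 1.5-fold were found in 33 genes (0.232%). LTBB OVX had the higher mean in 28 of them (0.197%) and the lower mean in 5 (0.0352%), and 6 genes (0.0422%) reached 2-fold. Of the 28 higher genes, 22 were in the muscle lists. The other 6 were Hhatl, Hjv, Klhl41, Klkb1, Mlf1 and Tmod4, of which at least Hhatl, Klhl41 and Tmod4 are also transcripts of muscle. Of the 5 lower genes, 4 (Fcer1a, Tpsab1, Cpa3 and Cma1) encode products of mast cells, and the last was the B cell attractant Cxcl13. The 1.5-fold count was 239 genes with the arrays quantile normalized again, 10 without LTBB OVX pool 3, 21 without OVX pool 3, and 54 without OVX pool 2, LTBB OVX pool 1 or LTBB OVX pool 2. The 2-fold count was 35 after that normalization and ran from 2 without OVX pool 1, OVX pool 3 or LTBB OVX pool 3 to 24 without LTBB OVX pool 2. The normalization acted on centred values, and the median SE over genes was 0.13 after it and 0.09 before. Spread and differences thus grew together, and how far small differences were stretched was not tested.

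The highest mean difference over genes belonged to Tnnt1, the slow skeletal troponin T that holds the calcium switch of slow fibres on the thin filament. It was measured at -0.66, -0.75 and -1.17 in the OVX pools and at -0.38, -0.998 and 3.07 in the LTBB OVX pools. A single LTBB OVX pool, the third, was high, while pool 1 lay slightly above and pool 2 inside the OVX range. The mean difference was 1.42 (SE 0.96, 95% interval -0.65 to 3.50), and 0.17 without that pool.

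The same pool stood apart in the other slow fibre genes. Tnnc1, the slow and cardiac troponin C, had values of -0.90, -0.30 and -0.42 in OVX and -0.34, -0.41 and 2.33 in LTBB OVX. Tnni1, the slow troponin I, had -0.40, -0.62 and -0.45 in OVX and -0.10, -0.39 and 1.38 in LTBB OVX. Tnni1 was thus one of 2 of the 28 genes whose groups did not overlap (all genes with LTBB OVX on top: 3.93%), with a difference of 0.79 (SE 0.43, 95% interval -0.15 to 1.73) and of 0.25 without LTBB OVX pool 3. The second was Hhatl, an acyltransferase-like protein of striated muscle, at -0.86, -0.87 and -1.18 in OVX and -0.37, -0.73 and 0.34 in LTBB OVX. Its difference was 0.71 (SE 0.35, 95% interval -0.04 to 1.47). Both non-overlapping genes were singled out after their values were seen.

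Fast fibre genes varied more, in the OVX group too. Myh4, the myosin heavy chain of the fastest fibres, was at -4.77, -1.65 and -5.26 in the OVX pools and at -2.85, -5.47 and 0.43 in the LTBB OVX pools. OVX pool 2 was higher than 2 of the LTBB OVX pools, and LTBB OVX pool 2 was the lowest of the 6. Its difference of 1.26 (SE 1.22, 95% interval -1.38 to 3.90) turned to -0.27 without LTBB OVX pool 3. Actn3, the fast fibre actinin of the Z disc, was at -3.05, -1.54 and -4.00 in OVX and -2.18, -3.41 and 0.10 in LTBB OVX. The difference of 1.03 for Actn3 (SE 0.79, 95% interval -0.67 to 2.74) shrank to 0.07 without the third LTBB OVX pool. Acta1, the skeletal actin of the thin filament, followed the same order of pools, with -3.57, -1.89 and -4.99 in OVX and -2.63, -5.21 and 0.24 in LTBB OVX, and a difference of 0.95 (SE 1.04) that became -0.44.

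Genes that feed the contraction had the same high pool. Ckm, the muscle creatine kinase that regenerates ATP, was at -3.29, -1.69 and -4.16 in OVX and -2.29, -4.19 and 0.04 in LTBB OVX. Mb, the oxygen store myoglobin, was at -3.63, -1.11 and -3.34 in OVX and -2.48, -3.89 and 0.54 in LTBB OVX. Cox8b, a muscle form of a cytochrome c oxidase subunit, was at -2.77, -1.91 and -2.76 in OVX and -2.25, -2.32 and 0.37 in LTBB OVX. For all 3 the OVX range held at least one LTBB OVX pool, and the third LTBB OVX pool was above it. The differences were 0.90 (SE 0.83) for Ckm, 0.75 (SE 0.91) for Mb and 1.08 (SE 0.57) for Cox8b. Atp2a1, the calcium pump of the fast fibre reticulum, had a difference of 0.93 (SE 0.55), with -2.64, -1.38 and -3.02 in OVX and -1.77, -2.39 and -0.09 in LTBB OVX.

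The plot of 12 muscle genes by pool shows this spread beside the other groups. For Myh4 the Sham pools were at 2.30, 1.64 and 3.52 and the STBB OVX pools at 0.36, -0.36 and 0.57, so that LTBB OVX pool 3 lay inside the range of the STBB OVX pools and below the Sham pools. The STBB OVX mean of Myh4 was above the LTBB OVX mean by 2.82 (SE 1.22, 95% interval 0.18 to 5.46), and limma called 0 genes between the 2 BB diets at the adjusted p, against 484 at an unadjusted p under 0.05.

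**Figure D2:**
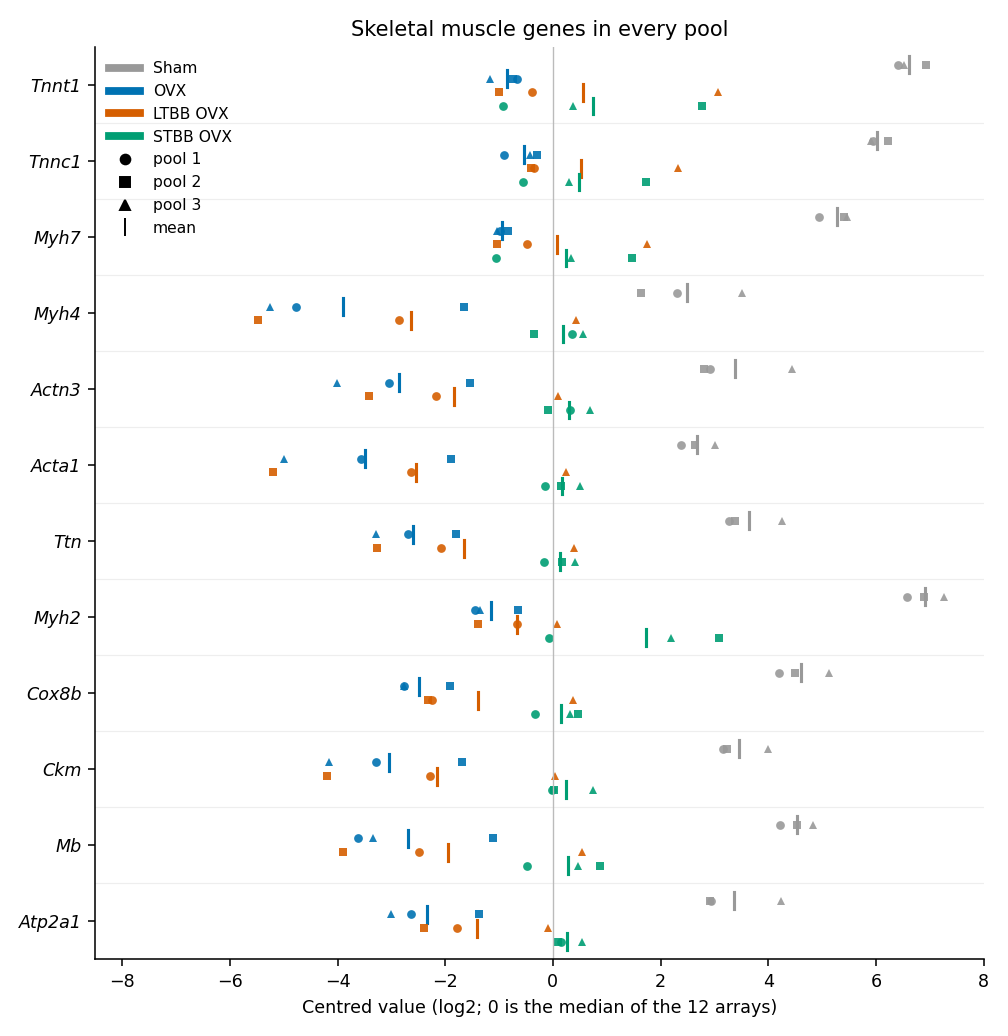
Centred log2 values of 12 skeletal muscle genes, 1 point for each pool of 2 to 3 rats and a bar for the mean of each group of 3 pools. LTBB OVX pool 3 sits apart from LTBB OVX pools 1 and 2, which lie mostly within or near the range of the OVX pools.

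Over all 28 higher genes, LTBB OVX pool 3 was the highest of the 6 pools in 27, and LTBB OVX pool 2 was at or under the OVX mean in 19. Unadjusted p was under 0.05 in 0 of the 28 (all genes, higher in LTBB OVX: 0.802%). Their median difference was 0.84 with all pools and -0.05 without LTBB OVX pool 3, when 15 of the 28 turned sign and 26 lost most of their size. A difference of at least 1.5-fold remained in 1 of the 28, Klkb1, the plasma prekallikrein gene, whose highest value was in LTBB OVX pool 1. OVX pools mattered as well. The median was 0.57 without OVX pool 3, when 13 of the 28 remained at 1.5-fold, and it was 1.25 without OVX pool 2. It was 0.78 without OVX pool 1, 1.01 without LTBB OVX pool 1 and 1.48 without LTBB OVX pool 2. The plot of the 33 genes with each pool left out shows how far 1 pool moved each difference.

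**Figure D3:**
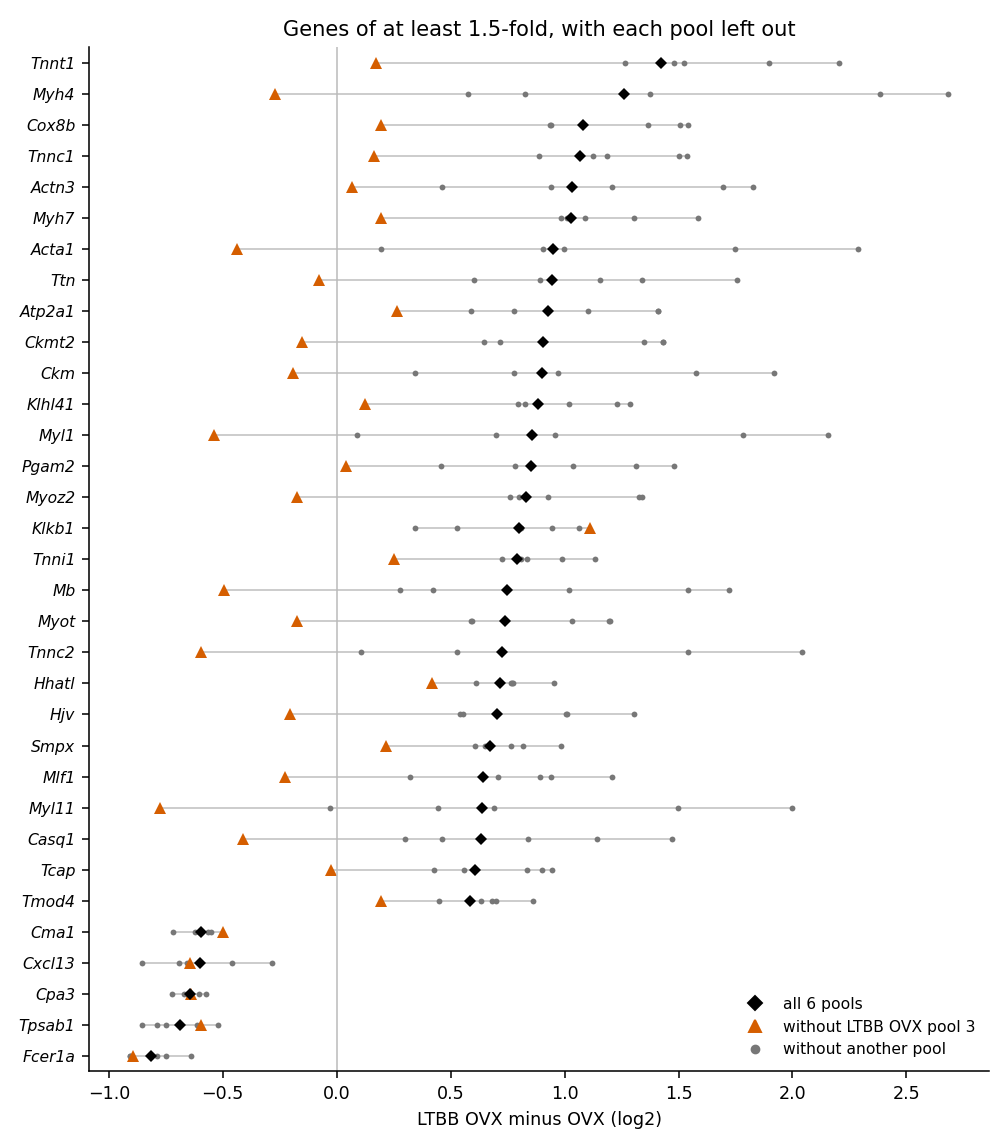
For each of the 33 genes with a difference of at least 1.5-fold, the diamond gives LTBB OVX minus OVX (log2) over all 6 pools, the triangle the difference without LTBB OVX pool 3, and the dots the differences without each of the other pools. The triangles of 15 of the 28 higher genes lie below 0, and those of the 5 lower genes stay near their diamonds, while Cxcl13 moves to -0.28 without OVX pool 2.

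As a list, 39 sarcomere genes of 40 were measured, and 38 had a difference above 0, where 47.2% of all genes did. Their median difference was 0.49, and 1 of 39 was higher at an unadjusted p under 0.05, where 0.802% of all genes were, the perinatal myosin heavy chain Myh8 at 0.18, a gene named after its value was seen. The mean centred value of the list was -1.40, -0.84 and -1.67 in the OVX pools and -1.14, -1.68 and 0.49 in the LTBB OVX pools. LTBB OVX pool 2 was the lowest and LTBB OVX pool 3 the highest of the 6, and without the latter the median was -0.05 with 15 of 39 above 0. Muscle energy metabolism, with 14 of 18 genes above 0, had a median of 0.31, and -0.12 without LTBB OVX pool 3. Its list values were -1.31, -0.80 and -1.44 in OVX and -1.15, -1.42 and 0.09 in LTBB OVX. Muscle excitation and calcium genes had a median of 0.01 over 22 genes, and 0.17 without LTBB OVX pool 2 or -0.02 without LTBB OVX pool 3. The part that muscle attached to the bone had in these values was not tested.

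Among the myosin heavy chains for which the study gives PCR primers, Myh4 is described above. Myh7, the slow fibre and cardiac chain, was at -0.98, -0.82 and -1.03 in OVX and -0.47, -1.03 and 1.75 in LTBB OVX, a difference of 1.03 (SE 0.65, 95% interval -0.38 to 2.43). Its 2 probe sets gave 0.16 and 1.90, so that 1 probe set made most of it. The value of 1.90 was the highest difference of any probe set. Myh2, the chain of fast oxidative fibres, was at -1.45, -0.64 and -1.36 in OVX and -0.68, -1.39 and 0.07 in LTBB OVX, with LTBB OVX pool 3 alone above the OVX range and a difference of 0.49 (SE 0.61). Myh1, a further fast chain, had a difference of 0.16 (SE 0.19), the embryonic chain Myh3 had -0.01 (SE 0.21) and the cardiac chain Myh6 had 0.06 (SE 0.08), and in all 3 the groups overlapped. The 5 probe sets of Myh1 ran from 0.05 to 0.39, and the 2 of Myh6 from 0.01 to 0.12. The non-muscle heavy chain Myh9, which moves the cytoskeleton of most cells, had a difference of -0.07 (SE 0.07, 95% interval -0.22 to 0.08), and Myh10 had -0.08 (SE 0.12). The list of 28 non-muscle actomyosin genes had a median of -0.04, with 11 above 0, and all 28 intervals lay within 1.5-fold. Its most different members were Limk1, a kinase that stabilises actin filaments, at -0.20 (SE 0.11), and the regulatory light chain Myl12b at -0.19 (SE 0.10).

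Genes of mast cells, the granule-bearing cells that bind immunoglobulin E, had lower means in LTBB OVX. Fcer1a, the chain of the high-affinity receptor that binds immunoglobulin E, was at 0.39, 0.31 and 0.07 in the OVX pools, a mean of 0.26 ± 0.16 (SD, n = 3). It was at -0.37, -0.91 and -0.40 in the LTBB OVX pools, a mean of -0.56 ± 0.30 (SD, n = 3). Every LTBB OVX pool was below every OVX pool, and LTBB OVX pool 2 was the lowest. The difference of -0.81 (SE 0.27, 95% interval -1.39 to -0.24) was the most negative of all genes. It stood at -0.91 to -0.64 with each pool left out in turn.

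In 3 granule proteases LTBB OVX pool 1 was the highest LTBB OVX pool, as in Fcer1a, while the order of the other pools varied. Cpa3, the mast cell carboxypeptidase, was at 0.31, 0.42 and 0.28 in OVX and -0.15, -0.45 and -0.32 in LTBB OVX. Tpsab1, a tryptase, was at 0.31, 0.23 and 0.77 in OVX and 0.08, -0.40 and -0.43 in LTBB OVX. Cma1, a chymase, was at 0.33, 0.24 and 0.19 in OVX and -0.09, -0.40 and -0.53 in LTBB OVX. In all 3 the groups did not overlap, although the highest LTBB OVX pool of Tpsab1, pool 1, was near the lowest OVX pool. The differences were -0.64 (SE 0.26, 95% interval -1.20 to -0.08) for Cpa3, -0.69 (SE 0.29, 95% interval -1.33 to -0.05) for Tpsab1 and -0.59 (SE 0.22, 95% interval -1.07 to -0.11) for Cma1. Mcpt1l1, a chymase-like protease, had a difference of -0.57 (SE 0.22, 95% interval -1.04 to -0.10), with LTBB OVX pool 1 only just below the OVX range.

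A list of 22 mast cell genes was drawn up after these values were seen, so its counts are a description. Of its 19 measured genes, 17 had a difference below 0, where 52.8% of all genes did, and 10 had LTBB OVX pools entirely below the OVX pools, where 4.77% of all genes did. The list median was -0.25, and it ran from -0.29 to -0.19 with each pool left out. The mean centred value of the list was 0.10, 0.12 and 0.08 in the OVX pools and -0.05, -0.32 and -0.24 in the LTBB OVX pools. LTBB OVX pool 1 was the nearest to the OVX pools. Other groups spread more widely, with 0.26, 0.11 and -0.13 in the Sham pools and 0.01, 0.01 and 0.43 in the STBB OVX pools. Sham pool 3 thus lay below LTBB OVX pool 1. Among the genes of this list that lie outside the rule for names, Hdc, which makes histamine, was at 0.12, 0.03 and -0.03 in OVX and -0.25, -0.28 and -0.34 in LTBB OVX (difference -0.33, SE 0.15, 95% interval -0.65 to -0.01). Slc18a2, the transporter that loads histamine into granules, had a difference of -0.25 (SE 0.11), and 1 of its 3 probe sets gave 0.06 where the others gave -0.49 and -0.32. Kit, the growth factor receptor on which mast cells depend, was at 0.00, 0.09 and 0.24 in OVX and 0.00, -0.03 and -0.06 in LTBB OVX, a difference of -0.14 (SE 0.09) with the lowest OVX and the highest LTBB OVX pool almost equal. Ms4a2, the second chain of the receptor, had -0.18 (SE 0.11) with overlapping groups. The proteases Mcpt8, a product of basophils, and Mcpt9 had differences of the other sign, at 0.04 (SE 0.21) and 0.18 (SE 0.28).

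Cxcl13, the lower gene outside the mast cell list, was at 0.17, 0.91 and -0.23 in OVX and -0.59, -0.13 and -0.23 in LTBB OVX, with overlapping groups. Its difference of -0.60 (SE 0.45, 95% interval -1.58 to 0.39) was -0.28 without OVX pool 2, the high one. The 4 mast cell genes of the lower set had no overlap (all genes with LTBB OVX below: 4.77%), which their choice by size of difference favours.

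The STBB OVX pools bear on how single pools set these genes. Fcer1a was at -0.03, 0.04 and 0.86 in STBB OVX, with the third pool high, and Cpa3 was at 0.19, 0.15 and 1.15 with the same pool high. STBB OVX exceeded LTBB OVX by 0.85 for Fcer1a (SE 0.27, 95% interval 0.27 to 1.42), and limma's adjusted p was 0.9999.

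**Figure D4:**
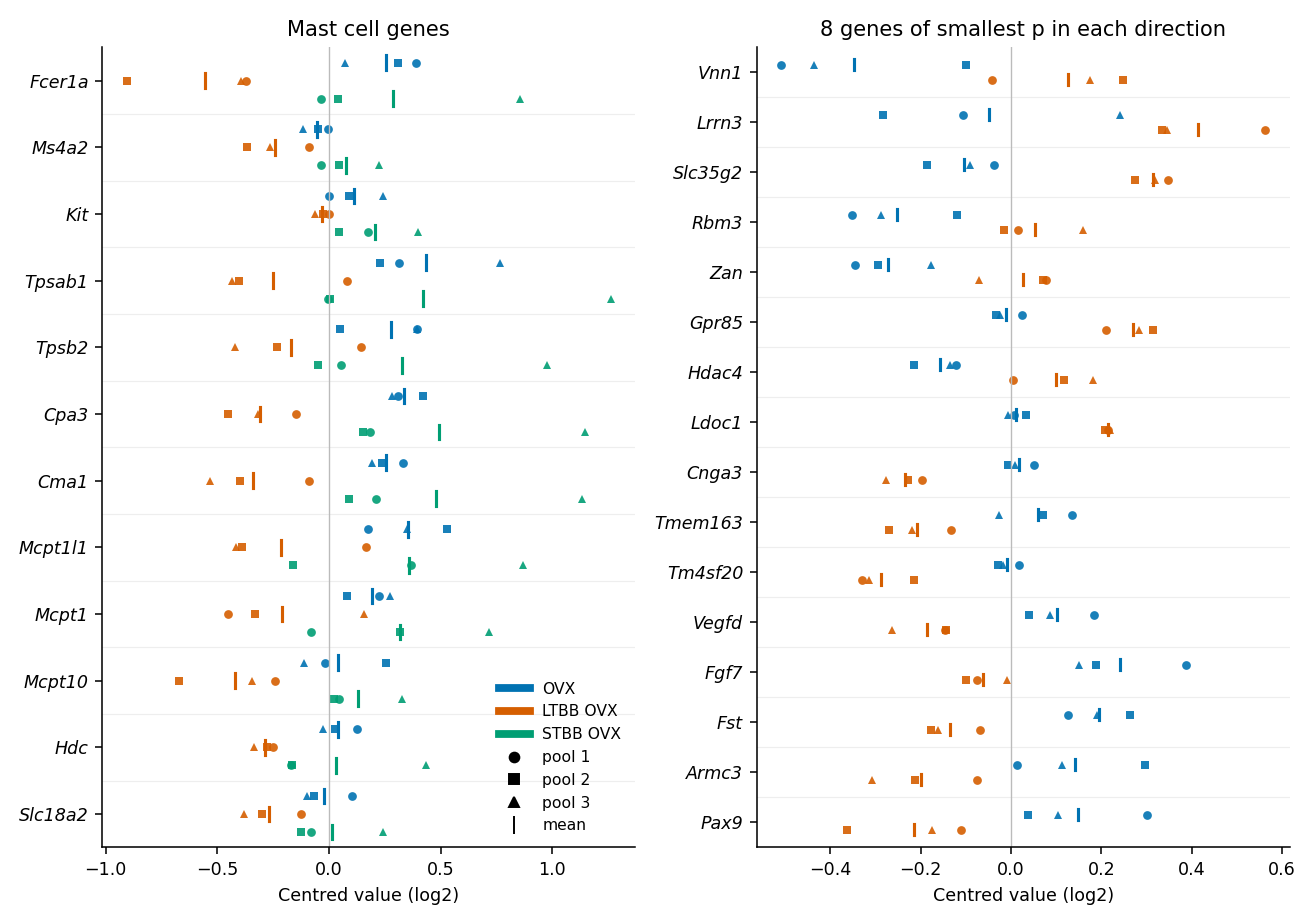
Centred log2 values by pool, with a bar for each group mean: on the left 12 mast cell genes in OVX, LTBB OVX and STBB OVX, on the right the 8 genes with the smallest unadjusted p in each direction in OVX and LTBB OVX. On the left the OVX and LTBB OVX pools are apart in Fcer1a, Cpa3, Cma1 and Tpsab1 and STBB OVX pool 3 is high; on the right the 2 groups do not overlap in any of the 16 genes.

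The genes with the smallest p had differences under 1.5-fold. Slc35g2, a member of the nucleotide sugar transporter family, was at -0.04, -0.18 and -0.09 in the OVX pools and 0.35, 0.27 and 0.32 in the LTBB OVX pools. Its difference of 0.42 (SE 0.08, 95% interval 0.24 to 0.59) had the smallest unadjusted p of all genes, and it ran from 0.38 to 0.45 with pools left out. Vnn1, a pantetheinase that releases cysteamine, was at -0.51, -0.10 and -0.44 in OVX and -0.04, 0.25 and 0.18 in LTBB OVX, a difference of 0.48 (SE 0.12, 95% interval 0.21 to 0.74). LTBB OVX pool 1 of Vnn1 was only just above OVX pool 2. The other 6 genes of smallest p with a higher mean in LTBB OVX were Lrrn3, Ldoc1, Gpr85, Zan, Rbm3 and Hdac4. Rbm3, an RNA-binding protein induced by cold, had 0.31 (SE 0.09, 95% interval 0.10 to 0.51), and Hdac4, a histone deacetylase that restrains hypertrophy of growth plate cartilage cells, had 0.26 (SE 0.08, 95% interval 0.09 to 0.43).

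On the lower side the gene of smallest p was Fst, follistatin, which binds and blocks activins. Fst was at 0.13, 0.26 and 0.19 in OVX and -0.07, -0.18 and -0.16 in LTBB OVX, with no overlap. Its difference was -0.33 (SE 0.07, 95% interval -0.49 to -0.17), and its 2 probe sets gave -0.40 and -0.26. A pair of growth factor genes came with it. Vegfd, a growth factor of lymph vessels, was at 0.18, 0.04 and 0.09 in OVX and -0.15, -0.14 and -0.26 in LTBB OVX, a difference of -0.29 (SE 0.07, 95% interval -0.43 to -0.14). Fgf7, the keratinocyte growth factor made by stromal cells, was at 0.39, 0.19 and 0.15 in OVX and -0.07, -0.10 and -0.01 in LTBB OVX, a difference of -0.30 (SE 0.07, 95% interval -0.46 to -0.15). The other 5 were Cnga3, Armc3, Tmem163, Tm4sf20 and Pax9, with differences from -0.36 for Pax9 to -0.25 for Cnga3. All of these 16 genes kept their sign with each pool left out, and in all 16 the groups did not overlap (all genes: 8.7%). The choice by smallest p favours both.

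Most gene lists, those of bone cells, collagen and cartilage among them, had medians close to 0. Of 37 lists, which hold 810 measured genes, 35 had a median difference within 0.15 log2 of 0, and 0 of their genes passed the adjusted test. The other two were the sarcomere and muscle energy lists. With the arrays quantile normalized again, T and NK cell genes had a median of -0.20 and macrophage genes of -0.16, on the wider scale of that setting. The plot of list values shows the pools of both diets side by side.

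**Figure D5:**
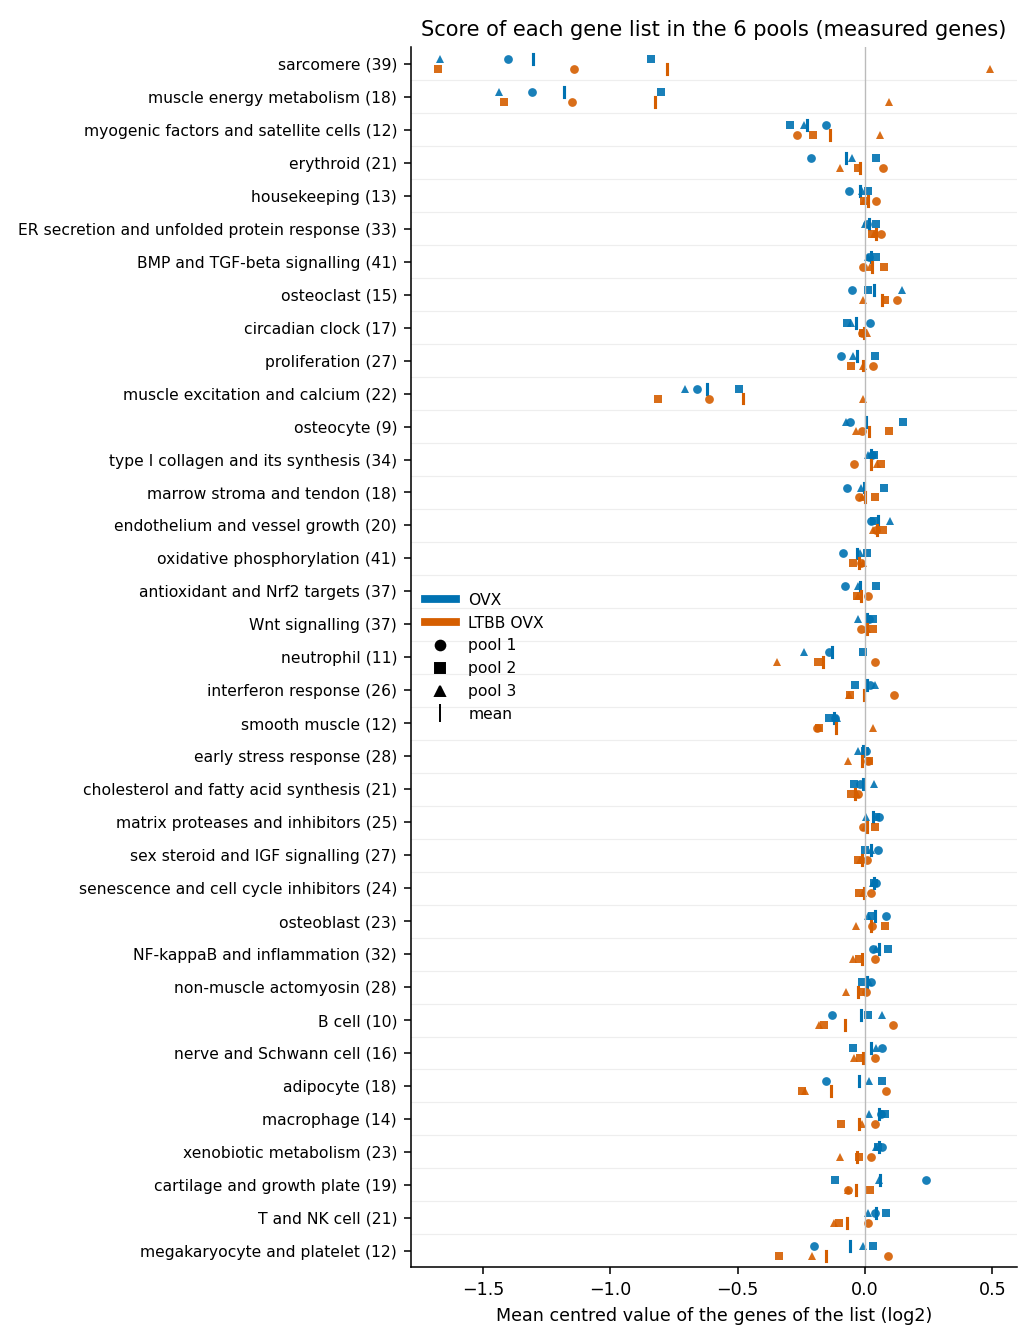
Mean centred log2 value of the measured genes of each of 37 lists in the 3 OVX and 3 LTBB OVX pools, with a bar for each group mean and the number of measured genes after each name. The muscle lists at the top spread widest, with LTBB OVX pool 3 apart, and the pools of most other lists lie close to 0.

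Osteoblast genes had a median of -0.03 over 23 genes, 8 of them above 0, and of 0.03 without LTBB OVX pool 3 or 0.02 without OVX pool 1, and every interval lay within 1.5-fold. Alpl, the alkaline phosphatase of mineralising osteoblasts, was at 0.21, -0.02 and 0.08 in OVX and 0.02, 0.22 and -0.07 in LTBB OVX, a difference of -0.03 (SE 0.11, 95% interval -0.26 to 0.20) that was 0.0319 with the arrays quantile normalized again. Bglap, osteocalcin, was at -0.01, 0.01 and 0.03 in OVX and 0.05, 0.03 and -0.04 in LTBB OVX, a difference of 0.00 (SE 0.11, 95% interval -0.23 to 0.23). The pools of both genes were mixed in order. Spp1, osteopontin, had a difference of -0.06 (SE 0.18) and Ibsp, bone sialoprotein, had 0.07 (SE 0.06). The largest difference of the list was that of Omd, osteomodulin, a matrix protein of mineralising bone, at 0.17 (SE 0.18). Runx2 was not analysed here.

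Collagen genes were tightly bounded. The 34 genes of type I collagen and its synthesis had a median of 0.01, and every interval lay within 1.5-fold. Col1a1, the main chain of bone collagen, was at 0.01, 0.00 and 0.01 in OVX and 0.02, 0.00 and 0.00 in LTBB OVX, and its 95% interval was -0.15 to 0.15. Col1a2, the partner chain, had a difference of 0.01 (95% interval -0.13 to 0.16). For both chains a difference beyond 0.2 log2 lay outside the interval.

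Osteoclast genes had a median of 0.02 over 15 genes, 10 above 0, with all intervals within 1.5-fold. Ctsk, the protease that digests bone collagen, had a difference of -0.03 (SE 0.15, 95% interval -0.36 to 0.31), Acp5, the tartrate-resistant phosphatase, had 0.01 (SE 0.10) and Calcr, the calcitonin receptor, had 0.07 (SE 0.10). The osteoclast list was at -0.05, 0.01 and 0.15 in the OVX pools and 0.12, 0.08 and -0.01 in the LTBB OVX pools, which overlapped. The 9 osteocyte genes had a median of 0.01, and Sost, the Wnt inhibitor secreted by osteocytes, had a difference of -0.06 (SE 0.08, 95% interval -0.24 to 0.12).

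Cartilage and growth plate genes were below 0 in 16 of 19, where 52.8% of all genes were, with a median of -0.10. That median was -0.03 without OVX pool 1 and -0.20 without OVX pool 2. At an unadjusted p under 0.05, 0 of the 19 passed, where 2.31% of all genes did. The list was at 0.24, -0.12 and 0.05 in OVX and -0.07, 0.02 and -0.07 in LTBB OVX, so that OVX pool 1 alone was clearly high. Snorc, a proteoglycan of cartilage, had a difference of -0.31 (SE 0.17) and Acan, aggrecan, had -0.24 (SE 0.16), with values of 0.45, -0.19 and 0.19 in OVX and -0.14, 0.14 and -0.27 in LTBB OVX. Col2a1, the main cartilage collagen, had 0.06 (SE 0.10), with 3 probe sets from -0.11 to 0.16. Col10a1, the collagen of hypertrophic cartilage, had -0.07 (SE 0.22).

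Signalling lists were centred on 0 with single members apart. Wnt signalling had a median of -0.01 over 37 genes. Wnt5a, a Wnt ligand that osteoblast-lineage cells give to osteoclast precursors, was at 0.01, -0.16 and -0.16 in OVX and 0.30, 0.38 and 0.13 in LTBB OVX, with no overlap, and its difference was 0.37 (SE 0.12, 95% interval 0.10 to 0.64). Sfrp1, a secreted Wnt inhibitor, had a difference of -0.25 (SE 0.09, 95% interval -0.45 to -0.04), and LTBB OVX pool 1 overlapped the OVX pools. The 41 genes of BMP and TGF-beta signalling had a median of 0.02, with Fst the largest difference. The 27 genes of sex steroid and IGF signalling had a median of -0.03. Esr1, the estrogen receptor alpha gene, had a difference of 0.03 (SE 0.14, 95% interval -0.27 to 0.34), Igf1 had 0.16 (SE 0.13) and Igfbp4, which binds IGFs and holds them from their receptor, had -0.23 (SE 0.10, 95% interval -0.45 to -0.0043) with no overlap.

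Senescence and cell cycle inhibitor genes had a median of -0.03 over 24 genes, 8 above 0. Cdkn1a, the cyclin-dependent kinase inhibitor p21, was at 0.26, 0.02 and -0.04 in OVX and 0.07, 0.17 and -0.10 in LTBB OVX, a difference of -0.04 (SE 0.10). The 2 probe sets of Cdkn1a differed in sign, at -0.12 and 0.05. Cdkn2b, a further inhibitor of the cycle, had -0.18 (SE 0.09, 95% interval -0.39 to 0.02). The most negative members, Ccl2 and Cxcl1, are chemokines that senescent cells secrete and that the inflammation list holds as well.

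In the NF-kappaB and inflammation list, 22 of 32 genes were below 0, where 52.8% of all genes were, with a median of -0.03. Ccl2, which calls monocytes, was at 0.11, 0.47 and 0.19 in OVX and 0.00, -0.36 and 0.00 in LTBB OVX, with OVX pool 2 high, LTBB OVX pool 2 low and no overlap (difference -0.37, SE 0.22, 95% interval -0.84 to 0.09). Cxcl1, which calls neutrophils, was at 0.35, 0.34 and 0.31 in OVX and 0.03, 0.16 and -0.09 in LTBB OVX, with no overlap and a difference of -0.30 (SE 0.10, 95% interval -0.51 to -0.08). Cxcl10, an interferon-induced chemokine, had -0.35 (SE 0.14, 95% interval -0.66 to -0.03), with LTBB OVX pool 3 far below the rest and -0.18 without it. Relb, an NF-kappaB subunit, had -0.22 (SE 0.09, 95% interval -0.42 to -0.03), and -0.14 without LTBB OVX pool 3. Over the list, 3 of 32 genes had a lower value at an unadjusted p under 0.05, where 1.51% of all genes did, and 0 had a higher one.

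Antioxidant genes and targets of the stress factor Nrf2, which plant phenolics are known to engage in cultured cells, had a median of 0.00 over 37 genes, 19 above 0 and 18 below. Mt1, the metal-binding metallothionein, was at -0.03, -0.05 and -0.40 in OVX and 0.13, 0.00 and 0.27 in LTBB OVX, with no overlap, OVX pool 3 low and a difference of 0.29 (SE 0.11, 95% interval 0.05 to 0.53) that was 0.18 without that pool. Gsr, which keeps glutathione reduced, was at -0.35, -0.26 and -0.14 in OVX and -0.01, 0.10 and 0.01 in LTBB OVX, a difference of 0.28 (SE 0.11, 95% interval 0.05 to 0.52). Slc7a11, which imports cystine for glutathione synthesis, had a difference of the other sign at -0.26 (SE 0.11, 95% interval -0.50 to -0.02). The Nrf2 targets Nqo1 and Hmox1 had -0.09 (SE 0.08) and -0.05 (SE 0.11), with overlapping groups.

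Genes of xenobiotic metabolism were below 0 in 20 of 23, where 52.8% of all genes were, with a median of -0.10. At an unadjusted p under 0.05, 0 of the 23 passed, where 2.31% of all genes did. The list was at 0.07, 0.05 and 0.04 in the OVX pools and 0.02, -0.03 and -0.10 in the LTBB OVX pools. Cyp1a2, an oxidase of planar aromatic compounds, had a difference of -0.25 (SE 0.20), with 0.10, -0.08 and -0.41 in the LTBB OVX pools, of which only the last was below all OVX pools. Ahrr, the repressor of the aryl hydrocarbon receptor, had -0.18 (SE 0.10, 95% interval -0.39 to 0.03) with no overlap.

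Lists of marrow cells were slightly below 0 in several lineages, and their LTBB OVX pools were not alike. T and NK cell genes were below 0 in 19 of 21, where 52.8% of all genes were, with a median of -0.10. The list was at 0.04, 0.08 and 0.01 in OVX and 0.01, -0.10 and -0.12 in LTBB OVX. LTBB OVX pools 2 and 3 were low and pool 1 was among the OVX pools. Cd3e, a chain of the T cell receptor complex, was at 0.08, -0.05 and 0.13 in OVX and -0.16, -0.17 and -0.26 in LTBB OVX, with no overlap and a difference of -0.25 (SE 0.09, 95% interval -0.45 to -0.05). The 2 probe sets of Cd3e gave -0.37 and -0.13. Macrophage genes were below 0 in 12 of 14, with a median of -0.09. Megakaryocyte and platelet genes had a median of -0.13, at -0.20, 0.03 and -0.01 in OVX and 0.09, -0.34 and -0.21 in LTBB OVX, so that the groups overlapped. Without LTBB OVX pool 2 that median was 0.02, with 8 of 12 genes above 0 in place of 2. Erythroid genes had a median of 0.04 and neutrophil genes of -0.01.

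In adipocyte genes LTBB OVX pools 2 and 3 were again low. The list had a median of -0.07 with 14 of 18 genes below 0 (all genes: 52.8%), and a median of -0.15 without OVX pool 1. It was at -0.15, 0.07 and 0.01 in OVX and 0.08, -0.25 and -0.23 in LTBB OVX. Scd, which makes monounsaturated fatty acids, was at -0.61, 0.18 and 0.18 in OVX and 0.07, -0.91 and -0.97 in LTBB OVX, a difference of -0.52 (SE 0.38, 95% interval -1.35 to 0.31), with OVX pool 1 low beside LTBB OVX pools 2 and 3. Adipoq, the fat cell hormone adiponectin, was at -0.22, 0.22 and 0.00 in OVX and 0.05, -0.86 and -0.46 in LTBB OVX, a difference of -0.42 (SE 0.24, 95% interval -0.94 to 0.10) and of -0.20 without LTBB OVX pool 2. Fabp4, a fatty acid carrier of fat cells, had -0.24 (SE 0.19). In all 3 genes the groups overlapped.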

How the data were processed

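RNA of whole long bone was hybridised to Affymetrix rat genome arrays, 3 pools for each of 4 groups. Per the methods, the authors processed the array files by robust multiarray analysis (RMA), set very low measurements to a floor and normalized per chip and per gene in GeneSpring. GCOS and RMA are the tools in the submitters' processing notes. The deposited values are log2 and have a median of 0 over the 12 arrays for each probe set, which removes levels and leaves differences between arrays. No 2 of the 6 arrays held identical values.

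The table holds 31099 probe sets. The 57 control probe sets among them were not tested, and the remaining 31042 were, dim or not. The platform annotation gave 1 gene symbol for 20826, several for 436 and none for 9780, and 20758 symbols were updated by gene ID (RefSeq genes of GRCr8, names only). The mean over the probe sets of a symbol gave values for 14217 genes, and 4525 of these rest on more than 1 probe set. limma 3.58.1 (R 4.3.3) fitted 4 group means over all 12 arrays, with moderated variances, 95% intervals and Benjamini-Hochberg adjustment at 0.05, two-sided. The spread behind each p-value is that between pools. The steps were tested on simulated data first. Tables and figures were made with Python 3.11.15 and matplotlib 3.10.9.

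The comparison and its 37 gene lists were chosen with earlier results of these data known, so that lists are described by counts and medians without a test. The rule for named genes took those past the adjusted p (none), the 8 of smallest p and the 6 of largest difference in each direction, the 4 most different members of each list described, the genes with PCR primers and the defining markers of cell types. Further genes named, the mast cell list among them, were chosen after their values were seen. Runx2 and Ppia, for which the annotation named no probe set, were not analysed here. Alternatives covered the scaling and weight of arrays, the arrays in the fit, the moderation of variances, the pool number as a block, a filter on spread, a fold threshold, the choice of probe set and each pool left out in turn.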

Additional observations from a re-analysis of the deposited data

How the results depend on the processing

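The count of probe sets and of genes past the adjusted p was 0 under every alternative run. The counts at an unadjusted p under 0.05 moved. They were 2139 probe sets and 920 genes with the arrays quantile normalized again, 2354 and 1125 with limma's array weights, 340 and 129 with the features of smaller spread left out, and, for genes, 506 with the 2 groups alone and 546 with the arrays of ovariectomized rats alone. With each pool left out in turn they ran from 620 to 1907 probe sets and from 238 to 821 genes; both highest counts came without OVX pool 2. The lowest gene counts were 238 without LTBB OVX pool 3 and 241 without OVX pool 1. Probe sets without overlap numbered 1397 with the smaller spread left out and 5141 to 8515 with a pool left out, where fewer pools are left to overlap. The median margin of the 95% interval was 0.34 log2 after quantile normalization and 0.25 with a pool left out. Quantile normalization gave all arrays one distribution of centred values, although the Sham pools lay far from the others in some lists. The sarcomere list was at 3.19, 3.29 and 3.90 in Sham and -1.40, -0.84 and -1.67 in OVX. Counts after it cannot separate a difference between the diets from a change of scale, which was not tested.

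The pool numbers are shared by the groups, but nothing in the labels ties equal numbers to a litter or a day, and the deviations of equally numbered OVX and LTBB OVX pools correlated at 0.02, -0.28 and -0.16. No pool correlated best with the pool of its own number in the other group. So few pools in each group cannot show whether equally numbered pools shared a litter or a day, and this was not tested. With the pool number as a replicate block, 798 probe sets and 293 genes passed at an unadjusted p under 0.05 and 0 at the adjusted p.

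Among 40 named genes followed over all settings, 7 turned sign in some. Alpl turned to 0.0319 after quantile normalization, Bglap to -0.000367 and Myh3 to 0.0159 with array weights. With pools left out, Alpl ran from -0.114 to 0.0334, Bglap from -0.0172 to 0.0277, Myh3 from -0.0602 to 0.0504, Myh6 from -0.0021 to 0.13, Acta1 from -0.44 to 2.29, Ckm from -0.19 to 1.92 and Myh4 from -0.27 to 2.68. Of the 37 list medians, 7 moved by more than the spread of the pools in some setting: those of T and NK cell, macrophage (-0.16) and ER secretion genes (0.07) with the arrays quantile normalized again, and those of matrix protease, osteoblast, sex steroid and inflammation genes with a pool left out. The 7 leave out the muscle lists, whose pools spread more widely. Without LTBB OVX pool 3 the sarcomere median went from 0.49 to -0.05 and the muscle energy median from 0.31 to -0.12. The lowest adjusted p of any named gene under any alternative was 0.161. The cause of these shifts was not tested. With 3 pools of 2 to 3 rats a lone probe set needs a 1.78-fold difference after adjustment, and values centred on each probe set leave dim probe sets unmarked.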

Other observations

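Clock genes, which cycle over the day, had a median of 0.02 over 17 genes, with single members apart. Dbp, an output factor of the clock, was at 0.02, -0.33 and -0.16 in the OVX pools and 0.30, 0.05 and 0.00 in the LTBB OVX pools, a difference of 0.27 (SE 0.11, 95% interval 0.03 to 0.52). Nr1d1 and Nr1d2, which repress the positive arm of the clock, had differences of 0.26 (SE 0.13) and 0.25 (SE 0.12), and Npas2, a factor of that arm, had -0.20 (SE 0.12). Bmal1 had -0.04 (SE 0.07) and Per2 had 0.08 (SE 0.10), the latter from 2 probe sets at -0.08 and 0.24.

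Proliferation genes had a median of 0.02 over 27 genes, and Mki67, a marker of cycling cells, had a difference of 0.19 (SE 0.11). Genes of oxidative phosphorylation had a median of 0.00 over 41 genes, all with intervals within 1.5-fold. The 33 genes of ER secretion and the unfolded protein response, the machinery that osteoblasts use to export collagen, had a median of 0.03, and all of their intervals lay within 1.5-fold. Interferon response genes had a median of -0.01 over 26 genes, in which Rsad2, an antiviral enzyme, had 0.29 (SE 0.12, 95% interval 0.03 to 0.54) with no overlap, and 0.15 without OVX pool 1. Kitlg, the ligand of Kit that marrow stroma presents to mast cells and blood stem cells, was at -0.01, 0.25 and 0.25 in OVX and 0.00, 0.03 and -0.28 in LTBB OVX, a difference of -0.25 (SE 0.11, 95% interval -0.49 to -0.01), and the groups overlapped in part through OVX pool 1. The 4 probe sets of Kitlg ran from -0.43 to -0.03.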
